A study of Mus musculus with 9 samples.

Results

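Aminoacyl-tRNA synthetases, the enzymes that load each amino acid onto its tRNA, were followed as mRNAs in RAW264.7 cells. The members were the protein-coding genes whose symbol has the form of a synthetase name (Iars, Iars2, Farsa, Eprs and the like), and 38 of the 28137 genes of the deposited table met this rule. RAW264.7 is a mouse monocyte-macrophage leukemia line. The 9 libraries form 3 groups of 3, which received control siRNA (NC), SFRP2 siRNA or RAB6A siRNA and were all then stimulated with lipopolysaccharide (LPS) to obtain the M1 phenotype. Per the labels, cells were transfected with 60 nM siRNA for 6 h, given complete medium for 12 h and exposed to 100 ng/ml LPS for 24 h, so that no group without LPS or without siRNA was analysed here. The titles also carry the mark 6H, and the labels do not say whether the 3 libraries of a group came from separate cultures, so the p-values measure only the spread between these libraries. The paper's methods add IFN-γ to the LPS, which the labels do not name. The titles of the SFRP2 siRNA libraries carry the numbers 1 to 3, and the paper's supplement lists different SFRP2 siRNA sequences under the same numbers. If each library had its own siRNA, the spread of that group includes differences between siRNAs.

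Most synthetases recognize 1 amino acid and its tRNAs (Eprs serves both glutamate and proline), and charged tRNA is what the ribosome uses. Most amino acids are served by a cytosolic enzyme and by a separate mitochondrial enzyme whose gene is also in the nucleus and usually has a symbol ending in 2. Several cytosolic enzymes are held together with 3 scaffold proteins in the multisynthetase complex. In mammalian cells, uncharged tRNA activates the kinase GCN2 (Eif2ak4), and ATF4, a transcription factor made under that signal, is known to bind C/EBP-ATF composite elements at genes for amino acid supply and tRNA charging. MYC, which binds E-box sequences with MAX, is another known regulator of genes for protein synthesis.

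Of the 38 members, 19 encode cytosolic enzymes (counting Tarsl2), 2 (Gars and Kars) encode enzymes of both compartments and 17 encode mitochondrial enzymes. Levels are given as FPKM, fragments per kilobase of exon per 1000000 reads, with each gene divided by the length of all its exons. As recovered from the deposited values, NC libraries held 41608378 to 47149258 reads. SFRP2 siRNA libraries held 34743304 to 40562562 and RAB6A siRNA libraries 32758729 to 37833883, all fewer than any NC library. Whether depth has a part in the results was not tested. The fewest reads of any member in a library were 36. Of recovered values of 1 to 12 reads, 72.5% were even. If both ends of a pair were counted, there were fewer fragments than reads. Summed FPKM over all genes was 361817 to 373756 in NC and SFRP2 siRNA libraries and 399883 to 410877 in RAB6A siRNA libraries. The targeted genes were read first. Rab6a was 24.3, 27.3 and 25.5 FPKM in NC libraries and 21.2, 20.7 and 20.4 in RAB6A siRNA libraries, a fall to 0.81 of NC (log2 fold change -0.31 ± 0.06 SE, adjusted p = 0.0024), so the groups did not overlap but the difference was small. Sfrp2 had 2 reads in each NC library and 4, 4 and 2 in SFRP2 siRNA libraries, too few to show a knockdown. The macrophage markers were high in all libraries (summed FPKM of 8 genes 4563 to 5032 in NC, 4034 to 4365 in SFRP2 siRNA and 3957 to 4121 in RAB6A siRNA libraries), although 4 of the 8, Lyz2, Csf1r, Spi1 and Fcgr1, fell under RAB6A siRNA. Of 11 markers of other cell types, 9 were found, and their summed FPKM was 1.97 to 2.34 in NC and 2.63 to 4.10 in RAB6A siRNA libraries, with 1 of the 9 at 0 in all NC libraries. Of the 3 of them that could be tested, Col1a2 rose under RAB6A siRNA. Whether these markers have a part in the synthetase results was not tested.

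In NC libraries the cytosolic enzymes were the abundant ones. Without Tarsl2, the 20 cytosolic or both-compartment members had mean levels from 15.03 to 191 FPKM (median 36.4), while 16 of the 17 mitochondrial members had mean levels from 1.04 to 11.6 FPKM. Sars, the serine enzyme, was highest, at 187, 193 and 193 FPKM. Rars, the arginine enzyme, followed at 129, 134 and 133 FPKM, and Nars, the asparagine enzyme, at 97.9, 97.1 and 93.1 FPKM. These 3 did not overlap with each other. The next in order, Farsb, spread from 76.8 to 91.7 FPKM, and lay below Nars in all 3 libraries. Iars (66.8 to 73.8 FPKM) came after it and also did not overlap with it. Lars2, the mitochondrial leucine enzyme, was the exception among mitochondrial members, at 65.3, 50.1 and 62.7 FPKM. Its FPKM was set over 11089 exon bases, against 3894 in its principal transcript. Where in the gene its reads lay was not tested, so its value is less certain.

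The lowest member was Tarsl2, a threonine enzyme related to Tars, at 0.553, 0.708 and 0.516 FPKM in NC libraries. Cars2, the mitochondrial cysteine enzyme, had 1.09, 1.03 and 0.988 FPKM, and Ears2, the mitochondrial glutamate enzyme, had 1.15, 1.05 and 1.06 FPKM, so that these last 2 overlapped with each other while Tarsl2 lay below both. The length used for FPKM matters for this order. Eprs, the enzyme for glutamate and proline, ranked 19 at 22.8 FPKM over 18102 exon bases and would rank 7, at 84.1, if its reads were set over the 4906 bases of its principal transcript. Set over principal transcripts in this way, the 20 cytosolic or both-compartment members ran from 26.6 to 275 and the 16 mitochondrial members from 1.23 to 33.6, so that the ranges overlapped. Mars2 would then rank lowest, at 1.23, with Tarsl2 next at 1.25. Lars2 would rank 3, at 169, above Nars at 152. Farsa and Farsb encode the subunits of the cytosolic phenylalanine enzyme, and the ratio of Farsb to Farsa FPKM was 3.21, 3.84 and 3.72 in NC libraries.

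**Figure D1:**
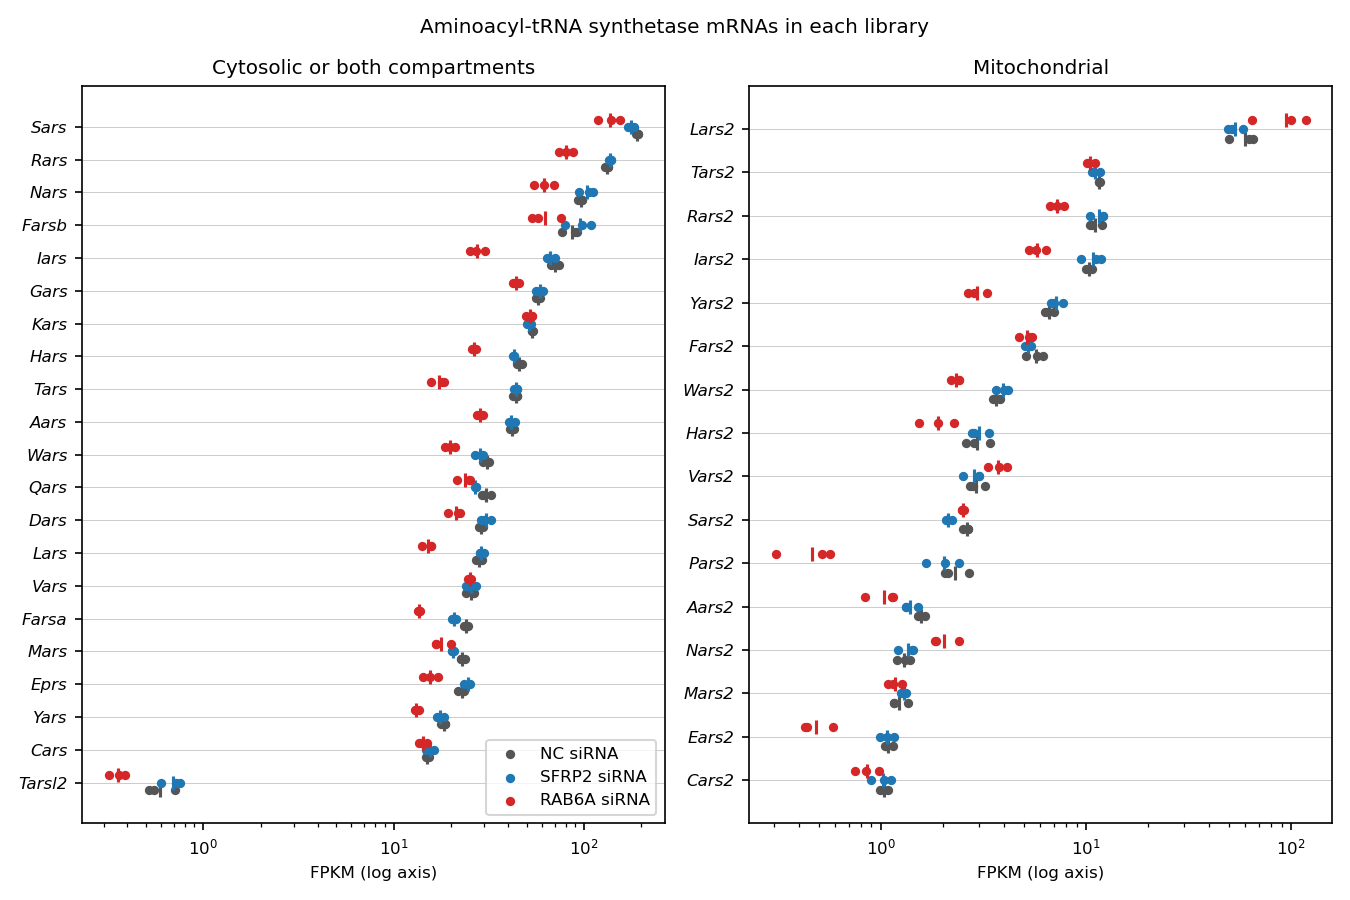
FPKM (log axis) of 37 of the 38 synthetase mRNAs in each of the 9 libraries, with 1 point per library, a vertical tick at the group mean, and genes ordered by their NC mean. Without Tarsl2, the cytosolic or both-compartment members had NC means from 15.03 to 191 FPKM, and RAB6A siRNA points lie left of the NC points for most members.

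RAB6A siRNA against NC asks how the group that received RAB6A siRNA differs from control cells under the same LPS. Synthetase mRNAs were mostly lower in RAB6A siRNA libraries. Of 37 members tested, 26 fell, 3 rose and 8 did not pass an adjusted p of 0.05. Over all 12712 genes tested, 36.5% fell and 37.6% rose, against 70.3% and 8.11% of the members tested. The median log2 fold change was -0.48 over the members tested and 0.03 over all genes tested. In 29 of the 37 members all RAB6A siRNA libraries lay below all NC libraries, as did 38.2% of all genes tested. Tarsl2 was below the limit of a mean of 0.5 FPKM and was not tested. It had 0.318, 0.388 and 0.362 FPKM in RAB6A siRNA libraries, all under its NC values. In these bulk libraries, less mRNA per cell and fewer cells holding that mRNA cannot be told apart.

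**Figure D2:**
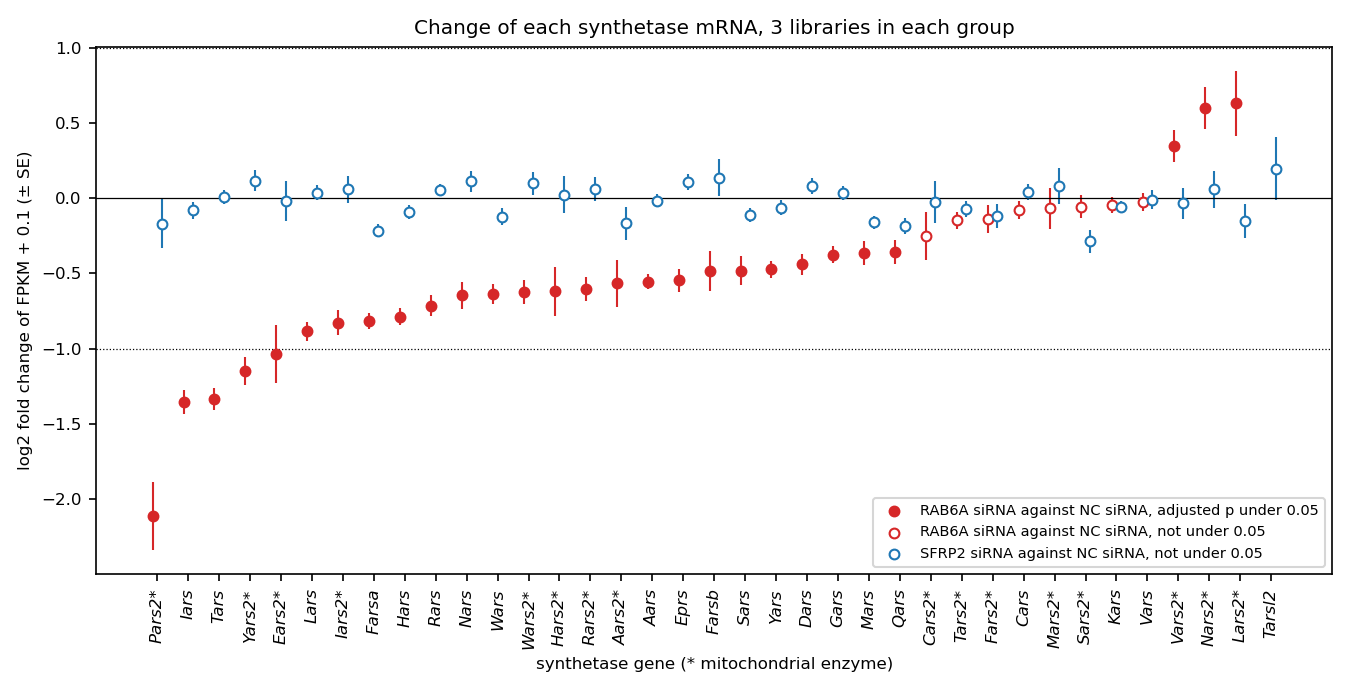
Log2 fold change of FPKM + 0.1 (points, bars ± SE) for 37 of the 38 synthetases against NC, RAB6A siRNA in red and SFRP2 siRNA in blue, filled where the adjusted p is under 0.05, with an asterisk for mitochondrial enzymes. RAB6A siRNA values run from -2.11 for Pars2 to 0.63 for Lars2, while no SFRP2 siRNA point is filled. Tarsl2 has no RAB6A siRNA point.

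The fall was broad among cytosolic enzymes. Of the 18 cytosolic members tested, 16 fell and none rose, with a median log2 fold change of -0.55. Summed FPKM of the 21 cytosolic and both-compartment members was 1043, 1073 and 1078 in NC libraries and 656, 723 and 772 in RAB6A siRNA libraries. The sums did not overlap (two-sided exact permutation test, p = 0.1, the smallest that 3 against 3 can give). All 38 members together took 0.611% to 0.626% of the recovered reads in NC libraries and 0.473% to 0.489% in RAB6A siRNA libraries.

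Iars, the cytosolic isoleucine enzyme, was 66.8, 70.6 and 73.8 FPKM in NC libraries and 25.3, 27.1 and 30.2 FPKM in RAB6A siRNA libraries. The groups were far apart, with a log2 fold change of -1.35 ± 0.08 (SE, adjusted p = 5.39e-06). Of its 50-base words, 7.15% also occur in other genes, mostly Gm4849, which had at most 8 reads in a library. Tars, the cytosolic threonine enzyme, was 44.4, 44.4 and 42.4 FPKM in NC libraries and 15.7, 18.1 and 18.3 FPKM in RAB6A siRNA libraries. Its log2 fold change was -1.33 ± 0.07 (SE, adjusted p = 4.38e-06). Iars and Tars were the only cytosolic members that met both criteria of the study's methods for a DEG, that is, an adjusted p below 0.05 with a log2 change larger than 1 in either direction.

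The proximal promoters of Iars and Tars are shown with those of Aars, Gars and Yars because these 5 hold the C/EBP-ATF composite letters. The sequences are from RefSeq on GRCm38.p6, each from 150 bases before to 30 bases after the annotated transcription start, 5′ to 3′ on the gene's strand. Capitals mark TGATGNAA, or its reverse complement, and the E-box CACGTG, which reads the same on both strands. No composite match overlaps an E-box.
Aars (chr8:111033692-111033871, strand plus): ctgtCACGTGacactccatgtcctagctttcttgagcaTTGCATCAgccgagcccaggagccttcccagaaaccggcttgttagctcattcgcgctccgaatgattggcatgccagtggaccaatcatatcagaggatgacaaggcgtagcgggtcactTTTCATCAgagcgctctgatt
Gars (chr6:55037851-55038030, strand plus): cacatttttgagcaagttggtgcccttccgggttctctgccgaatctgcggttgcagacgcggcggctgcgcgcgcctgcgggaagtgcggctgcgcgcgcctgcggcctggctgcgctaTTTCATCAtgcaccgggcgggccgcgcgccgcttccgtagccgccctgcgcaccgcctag
Iars (chr13:49681980-49682159, strand plus): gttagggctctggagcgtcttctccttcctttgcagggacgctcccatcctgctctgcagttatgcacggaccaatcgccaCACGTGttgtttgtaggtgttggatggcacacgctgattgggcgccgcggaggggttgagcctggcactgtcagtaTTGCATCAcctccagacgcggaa
Tars (chr15:11399629-11399808, strand minus): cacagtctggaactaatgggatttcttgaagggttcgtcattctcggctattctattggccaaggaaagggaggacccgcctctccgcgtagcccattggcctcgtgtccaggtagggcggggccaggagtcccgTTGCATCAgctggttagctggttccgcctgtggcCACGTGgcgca
Yars (chr4:129189753-129189932, strand plus): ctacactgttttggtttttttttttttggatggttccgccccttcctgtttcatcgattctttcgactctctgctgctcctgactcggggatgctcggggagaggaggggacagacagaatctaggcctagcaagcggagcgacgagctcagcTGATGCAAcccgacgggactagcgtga
In Iars the E-box begins 69 bases before the start and the composite match at base 8 after it. In Tars the composite match begins 15 bases before the start and the E-box at base 20 after it. Aars has an E-box 146 bases before the start and composite matches 112 bases before it and at base 10 after it. Gars and Yars hold a composite match alone, 30 bases before the start and at base 4 after it. RefSeq windows of 250 bases before to 50 after the start were matched by symbol or synonym, and 28 of the 38 members had a match. Those not matched included Cars, Hars, Hars2, Lars, Nars, Pars2, Rars, Vars and Wars. Whether the unmatched members hold either motif was not looked at. The composite letters were in 5 of the 28 members (17.9%) and in 3.97% of all 32851 windows. CACGTG was in 5 of the 28 members (17.9%), namely Iars, Tars, Aars, Ears2 and Farsb, and in 7.15% of all windows. All 7 members with either motif fell under RAB6A siRNA, from -1.35 for Iars to -0.37 for Gars on the log2 scale, and of the 20 tested members with a window and neither motif 11 fell and 3 rose. Over all members tested 70.3% fell, as did 85% of the cytosolic or both-compartment and 52.9% of the mitochondrial members tested. Of the members with a motif only Ears2 is mitochondrial, while most of those with a window and neither motif are. Dars, Eprs, Farsa, Mars, Qars and Sars, cytosolic and with neither motif, also fell, and Kars did not pass. The difference by motif was not tested and cannot be told apart from one by compartment. A match is a description of the letters, not a binding site.

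The multisynthetase complex holds 8 of the members as enzymes (Dars, Eprs, Iars, Kars, Lars, Mars, Qars and Rars). Of these, 7 fell and Kars did not pass the test. Rars was 74.1, 80.6 and 87.5 FPKM in RAB6A siRNA libraries, below the 129 to 134 FPKM of NC libraries (log2 fold change -0.71 ± 0.07 SE, adjusted p = 6.11e-05). Lars, the cytosolic leucine enzyme, fell by 0.88 on the log2 scale, Eprs by 0.55, Dars by 0.44, Mars by 0.37 and Qars by 0.36. The call on Qars was lost with GC content and gene length corrected (adjusted p = 0.061). Mars shares 68 exon bases with Ddit3 on the opposite strand, and Ddit3 rose from 15.2 to 16.7 FPKM in NC libraries to 57.3 to 67.1 FPKM in RAB6A siRNA libraries. Kars, the lysine enzyme of both compartments, was 53.3, 53.5 and 53.7 FPKM in NC libraries and 49.3, 53.1 and 53.0 FPKM in RAB6A siRNA libraries. These values barely separated, and its log2 fold change was -0.05 ± 0.05 (SE, adjusted p = 0.44). With GC content and gene length corrected, Kars turned to 0.18 with an adjusted p of 0.0080.

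Outside the complex, 10 of the 12 cytosolic or both-compartment members tested fell. Sars was 119, 139 and 154 FPKM in RAB6A siRNA libraries against 187 to 193 in NC libraries (log2 fold change -0.48 ± 0.09 SE, adjusted p = 0.0024). Nars was 54.4, 61.4 and 69.3 FPKM against 93.1 to 97.9 (log2 fold change -0.64 ± 0.09 SE, adjusted p = 0.00038). Both stayed among the abundant members although all their RAB6A siRNA libraries were below NC. Wars, the tryptophan enzyme, whose gene is known to be induced by interferon (IFN-γ is named in the paper's methods only), was 31.6, 29.6 and 31.2 FPKM in NC libraries and 18.5, 21.1 and 19.7 FPKM in RAB6A siRNA libraries. Its log2 fold change was -0.64 ± 0.07 (SE, adjusted p = 7.49e-05). Farsa fell by 0.82 and Farsb by 0.48 on the log2 scale, and the ratio of Farsb to Farsa FPKM was 3.93, 4.19 and 5.61 in RAB6A siRNA libraries and 3.88, 4.82 and 5.10 in SFRP2 siRNA libraries. Both groups lay above all NC ratios and overlapped with each other.

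Hars, Aars, Yars and Gars, for histidine, alanine, tyrosine and glycine, fell by 0.79, 0.55, 0.47 and 0.37 on the log2 scale. Of the exon bases of Aars, 15.1% belong also to other genes, mostly Exosc6 on the same strand, so its value is less certain. The 2 cytosolic members tested that did not pass were Cars (cysteine) and Vars (valine). Vars was 26.4, 24.0 and 26.2 FPKM in NC libraries and 25.0, 25.6 and 24.6 FPKM in RAB6A siRNA libraries, overlapping throughout (log2 fold change -0.03 ± 0.06 SE, adjusted p = 0.70). Cars was 14.7 to 15.3 FPKM in NC and 13.7 to 15.04 FPKM in RAB6A siRNA libraries (adjusted p = 0.26).

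Mitochondrial enzymes went in both directions. Of 17 members, 9 fell, 3 rose and 5 did not pass, with a median log2 fold change of -0.25. Thus 52.9% fell and 17.6% rose, against 36.5% and 37.6% of all genes tested. Without Lars2 their summed FPKM was 72.3, 68.9 and 70.4 in NC libraries and 52.7, 50.6 and 52.7 in RAB6A siRNA libraries, which did not overlap (two-sided exact permutation test, p = 0.1). With Lars2 the sums overlapped, at 119 to 138 in NC and 117 to 170 in RAB6A siRNA libraries. The difference between cytosolic and mitochondrial members was not tested.

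Pars2, the mitochondrial proline enzyme, had the lowest log2 fold change of the members tested with the pseudocount of 0.1. It was 2.70, 2.13 and 2.06 FPKM in NC libraries and 0.516, 0.308 and 0.562 FPKM in RAB6A siRNA libraries, from 348, 310 and 271 reads to 58, 36 and 57 reads. Its log2 fold change was -2.11 ± 0.22 (SE, adjusted p = 9.14e-05), and -1.17 with a pseudocount of 1, where Iars was at -1.33 and Tars at -1.29. Yars2, the mitochondrial tyrosine enzyme, went from 6.97, 6.31 and 6.53 FPKM to 3.28, 2.85 and 2.68 FPKM (log2 fold change -1.15 ± 0.09 SE, adjusted p = 2.31e-05). Ears2 went from 1.15, 1.05 and 1.06 FPKM to 0.438, 0.426 and 0.587 FPKM (log2 fold change -1.04 ± 0.19 SE, adjusted p = 0.0018). In each of these 3 genes the groups were well apart. With Iars and Tars, they made 5 members past both DEG thresholds, all lower, of the 37 tested. Of all genes tested, 12.8% passed both thresholds as lower, and the members' count is near that share. In either direction 30.1% of all genes tested passed both, a larger share than that of the members. With a pseudocount of 1 in place of 0.1, or with GC content and gene length corrected, 3 members passed both.

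Iars2, Wars2, Hars2, Rars2 and Aars2, for isoleucine, tryptophan, histidine, arginine and alanine, fell by 0.83, 0.63, 0.62, 0.60 and 0.57 on the log2 scale. Iars2 shares 24.2% of its exon bases with other genes, mostly Rab3gap2 on the opposite strand, which was 10.5 to 10.7 FPKM in NC and 10.6 to 11.8 FPKM in RAB6A siRNA libraries. The call on Hars2 was lost with GC content and gene length corrected (adjusted p = 0.063).

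The 3 members that rose were Lars2, Nars2 and Vars2. Lars2 was 65.3, 50.1 and 62.7 FPKM in NC libraries and 118, 100.3 and 64.4 FPKM in RAB6A siRNA libraries. Where in the gene these reads lay was not tested. RAB6A siRNA library 3 lay within the NC range, and the log2 fold change of 0.63 ± 0.22 (SE) had an adjusted p of 0.030. This call was lost without NC library 2 (adjusted p = 0.099) or 3 (0.055), or without RAB6A siRNA library 1 (0.092) or 2 (0.087). Nars2, the mitochondrial asparagine enzyme, was 1.38, 1.20 and 1.31 FPKM in NC libraries and 2.40, 1.83 and 1.85 FPKM in RAB6A siRNA libraries. The groups did not overlap, with a log2 fold change of 0.60 ± 0.14 (SE, adjusted p = 0.0053). Vars2, the mitochondrial valine enzyme, was 2.71, 2.83 and 3.21 FPKM in NC libraries and 4.13, 3.76 and 3.34 FPKM in RAB6A siRNA libraries. Its log2 fold change was 0.35 ± 0.11 (SE, adjusted p = 0.019), and the call was lost without NC library 1 (0.066) or 2 (0.060), or without RAB6A siRNA library 1 (0.064) or 2 (0.051).

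The 5 mitochondrial members that did not pass were Cars2, Tars2, Fars2, Mars2 and Sars2. Cars2 was 0.844, 0.982 and 0.751 FPKM in RAB6A siRNA libraries, below its NC values, with a log2 fold change of -0.25 ± 0.16 (SE, adjusted p = 0.19). Tars2 had a log2 fold change of -0.15 and an adjusted p of 0.051, which was 0.031 without RAB6A siRNA library 1. Fars2, Mars2 and Sars2, for phenylalanine, methionine and serine, had log2 fold changes of -0.14, -0.07 and -0.06.

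For 14 amino acids both a cytosolic and a mitochondrial gene were among the members under matching symbols, and their ratio was compared within each library. In 13 of the 14 pairs the cytosolic mRNA was at least 2 times the mitochondrial mRNA in all NC libraries (FPKM), with mean ratios up to 74.3 for Nars to Nars2. With reads set over principal transcripts, 12 of the 14 NC mean ratios were at least 2, and Tars to Tars2 was 1.92. Lars to Lars2 was the exception, at 0.415, 0.579 and 0.448. In 7 pairs, among them those of Iars, Lars, Nars, Sars, Tars and Vars, all RAB6A siRNA ratios were below all NC ratios, in 1 pair (Yars) they were above, and in 6 they overlapped. Nars to Nars2 went from 70.8, 81.0 and 71.3 to 22.7, 33.5 and 37.4. Tars to Tars2 went from 3.82, 3.84 and 3.62 to 1.42, 1.75 and 1.81, while Yars to Yars2 went from 2.56, 2.95 and 2.85 to 3.94, 4.59 and 5.07. For each of the 8 pairs that did not overlap the two-sided exact permutation test gave p = 0.1, the smallest possible, so none of the 14 could pass 0.05.

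**Figure D3:**
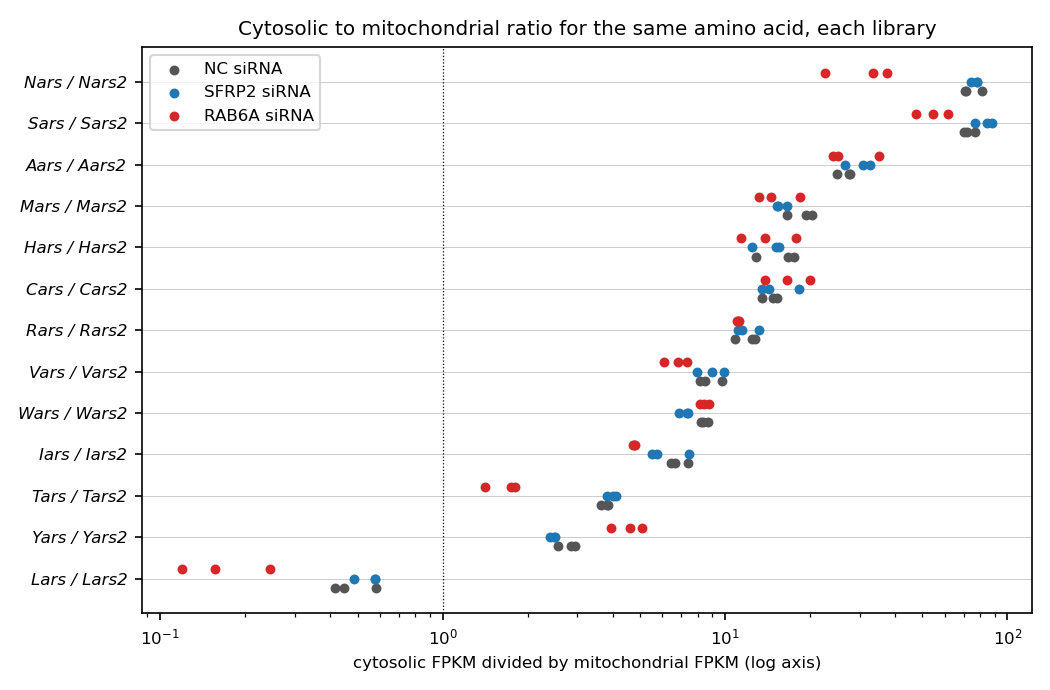
Ratio of cytosolic to mitochondrial FPKM for the same amino acid in each library, for 13 of the 14 pairs (log axis, 1 point per library), ordered by the NC mean, with the dotted line at equal levels. RAB6A siRNA ratios lie below NC for the pairs of Iars, Lars, Nars, Sars, Tars and Vars and above NC for Yars to Yars2, and the pair of Lars and Lars2 lies left of the line in all libraries.

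SFRP2 siRNA against NC asks what SFRP2 siRNA changed in the same cells. No synthetase passed. All 38 members were tested, 0 passed an adjusted p of 0.05 with limma or with voom on recovered reads, and 5 had an unadjusted p under 0.05, all lower (Farsa, Sars2, Mars, Qars and Sars). Over all 12017 genes tested, 0% passed and 18.5% had an unadjusted p under 0.05. The lowest adjusted p of any gene was 0.14. The paper, by contrast, reports DEGs for SFRP2 siRNA in stimulated RAW264.7 cells, using a model for counts and both of its criteria. That model was not run here. The median log2 fold change was -0.01 over the members and -0.01 over all genes tested. Among members, 8 were lower and 2 higher in all SFRP2 siRNA libraries than in all NC libraries, and 24.7% of all genes tested did not overlap in either direction.

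Farsa had the lowest unadjusted p, with 23.9, 23.4 and 24.7 FPKM in NC libraries and 20.4, 20.2 and 21.2 FPKM in SFRP2 siRNA libraries. The groups did not overlap, but the log2 fold change of -0.22 ± 0.05 (SE) had an adjusted p of 0.17. Sars2 was 2.66, 2.52 and 2.67 FPKM in NC libraries and 2.09, 2.07 and 2.22 FPKM in SFRP2 siRNA libraries (log2 fold change -0.29 ± 0.08 SE, adjusted p = 0.18). Mars was 22.5, 22.5 and 23.6 FPKM in NC libraries and 20.8, 20.2 and 20.4 FPKM in SFRP2 siRNA libraries (log2 fold change -0.16 ± 0.04 SE, adjusted p = 0.18). In Pars2, Iars, Tars, Yars2 and Ears2 the SFRP2 siRNA libraries overlapped with NC. Iars, for example, was 64.1, 65.3 and 70.3 FPKM, and Tars was 44.7, 44.6 and 42.7 FPKM.

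RAB6A siRNA and SFRP2 siRNA libraries were also set against each other, 2 siRNAs against different targets under the same LPS. Of 38 members tested, 24 were lower and 4 higher in RAB6A siRNA libraries, where 35.8% of all 12764 genes tested were lower and 37.6% higher. Pars2, Tars, Iars, Yars2 and Ears2 again had log2 fold changes under -1, from -1.94 for Pars2 to -1.02 for Ears2. Tarsl2 could be tested here, with 0.757, 0.599 and 0.717 FPKM in SFRP2 siRNA libraries, and was lower in RAB6A siRNA libraries (log2 fold change -0.79, adjusted p = 0.020). Those higher were Lars2 (0.78, adjusted p = 0.012), Nars2 (0.54, adjusted p = 0.011), Vars2 (0.38, adjusted p = 0.018) and Sars2 (0.23, adjusted p = 0.040). Vars2 lost its call without SFRP2 siRNA library 2 (adjusted p = 0.058) or without RAB6A siRNA library 1 (0.061) or 2 (0.051). Sars2 lost its call without SFRP2 siRNA library 1 (0.11) or 2 (0.11) or without any RAB6A siRNA library (0.074 to 0.096). The comparisons share libraries, so they are not independent of each other.

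The mRNAs for the scaffold proteins of the multisynthetase complex did not move together. Under RAB6A siRNA, Aimp2 went from 47.1, 47.4 and 51.7 FPKM to 18.8, 18.6 and 19.5 FPKM, a log2 fold change of -1.36 ± 0.06 (SE, adjusted p = 1.97e-06). Eef1e1 went from 19.3, 20.2 and 18.5 FPKM to 10.4, 11.5 and 10.4 FPKM (log2 fold change -0.84 ± 0.07 SE, adjusted p = 2.27e-05). Aimp1 was 12.3, 12.6 and 11.8 FPKM in NC libraries and 14.1, 15.2 and 16.5 FPKM in RAB6A siRNA libraries, and rose by 0.31 ± 0.07 (SE, adjusted p = 0.0052) on the log2 scale. In all 3 the groups did not overlap.

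The genes on either side of tRNA charging were counted in the same comparison, where 36.5% of all genes tested fell and 37.6% rose. Of 13 genes tested for accessory and indirect charging, such as the amidotransferase and selenocysteine enzymes, 7 fell and 3 rose, with a median log2 fold change of -0.28. The extremes called were Sephs2, which makes selenophosphate and fell by 1.55, and Pstk, the kinase of seryl-tRNA for selenocysteine, which rose by 0.69. Of 24 genes tested for tRNA maturation and export, 15 fell and 5 rose (median -0.37), from Pop1 at -2.54 to Rpp21 at 1.45, both subunits of ribonuclease P. Of 24 genes of RNA polymerase III and its factors, which make the tRNAs, 15 fell and 4 rose (median -0.51). There the extremes called were Gtf3c6 of factor TFIIIC at -1.76 and Polr1d, shared with RNA polymerase I, at 1.22. Of 6 genes that bring charged tRNA to the ribosome, 3 fell and 3 rose (median 0.05). Eef1a1, the cytosolic elongation factor, rose by 0.77, and Tufm, the mitochondrial elongation factor, fell by 0.61.

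Of 11 genes listed for uncharged tRNA sensing and the stress signal that follows, 4 rose and 2 fell (median 0.05). The list also holds Eif2ak1, Eif2ak2 and Eif2ak3, related kinases of the same stress signal that are not sensors of uncharged tRNA. Those that rose and fell are 36.4% and 18.2% of the list, the first near the 37.6% of all genes tested that rose. Eif2ak4 (GCN2) was 6.19, 5.56 and 6.26 FPKM in NC libraries and 14.1, 12.0 and 11.5 FPKM in RAB6A siRNA libraries (log2 fold change 1.05 ± 0.09 SE, adjusted p = 3.94e-05). Atf4 mRNA was 176, 177 and 178 FPKM in NC libraries and 170.4, 187 and 174 FPKM in RAB6A siRNA libraries, with a log2 fold change of 0.00 ± 0.06 (SE, adjusted p = 0.98). Its mRNA level does not give the level of the protein, which is controlled by translation. Ddit3, the stress factor CHOP, was highest of the list, with a log2 fold change of 1.99 ± 0.08 (SE, adjusted p = 1.52e-06), and Eif2ak2 (PKR) was lowest at -1.45.

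Of 32 ATF4 target genes other than synthetases that were tested, 23 fell and 6 rose, with a median log2 fold change of -0.59. The lowest called was Atf5 at -2.14, a transcription factor, and the highest was Ddit4 at 2.54, an inhibitor of mTORC1 signalling. Asns, the asparagine synthetase, which makes the amino acid that Nars loads, was 80.8, 88.6 and 79.7 FPKM in NC libraries and 48.0, 55.9 and 60.7 FPKM in RAB6A siRNA libraries (log2 fold change -0.60, adjusted p = 0.0011), and was chosen here after its values were seen. Of 8 genes of the MAX network tested, 3 fell and 3 rose (median 0.10), each 37.5% of the list and near the shares of all genes tested. Myc was 93.0, 90.9 and 92.5 FPKM in NC libraries and 6.32, 6.16 and 5.76 FPKM in RAB6A siRNA libraries, a log2 fold change of -3.90 ± 0.06 (SE, adjusted p = 1.55e-07). Mxi1, an antagonist of MYC, rose by 0.95. None of these lists had a gene called under SFRP2 siRNA.

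**Figure D4:**
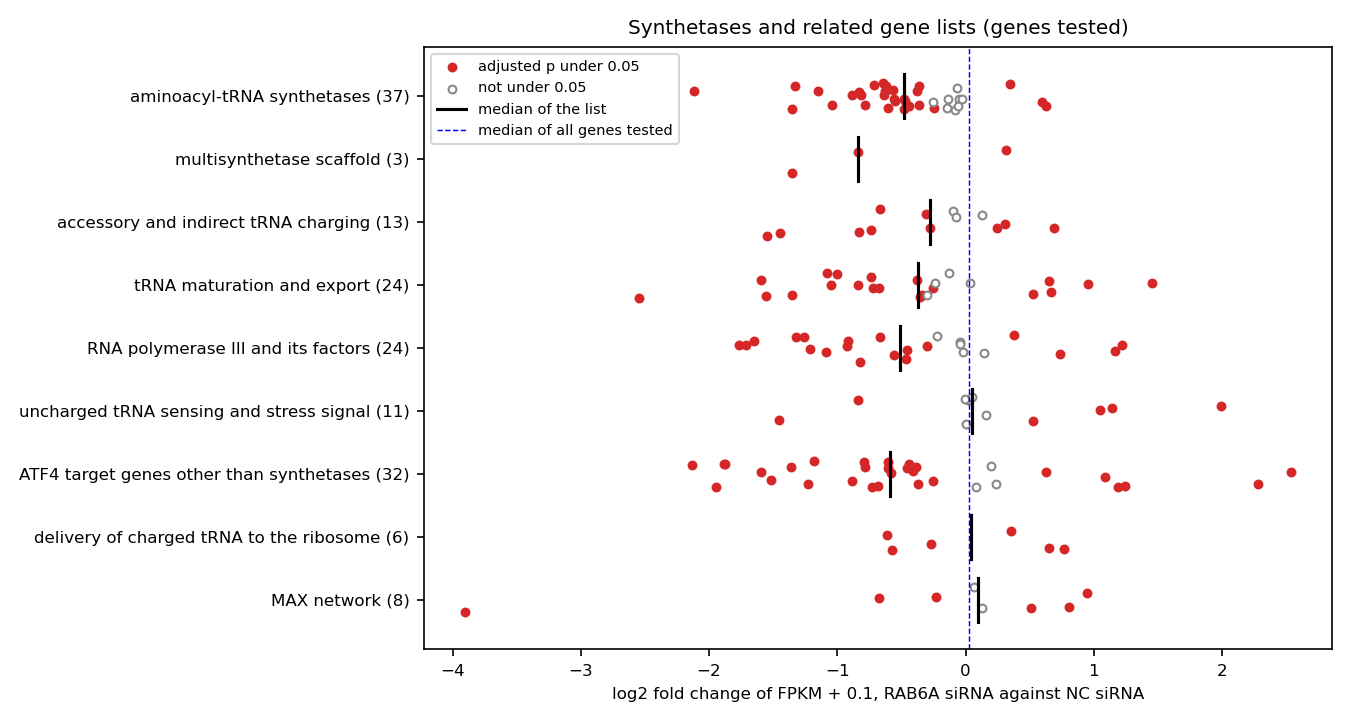
Log2 fold change of FPKM + 0.1, RAB6A siRNA against NC, for the genes tested in each list (number in brackets), red where the adjusted p is under 0.05, with a black bar at the list's median and a dashed line at the median of all genes tested (0.03). Synthetases (median -0.48), RNA polymerase III genes (-0.51) and ATF4 targets (-0.59) have medians left of the line, and the lists spread to both sides of it.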

How the data were processed

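RNA of 9 RAW264.7 libraries was sequenced paired-end from mRNA libraries (strand not stated). The authors deposited FPKM per Ensembl gene. HISAT2, Subread and featureCounts stand in the submitters' processing notes. Versions, genome build and annotation are not given in the sources used here. The paper's methods name other transfection conditions than the labels, and IFN-γ beside LPS. Genes were named from GENCODE M21 (GRCm38), which matched 27533 of 28137. FPKM times exon length gave whole reads (within 0.03) for 98.4% of these, which gave the depth.

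Members and lists were chosen with earlier results of these data known. Values are log2(FPKM + 0.1), for genes with a mean of at least 0.5 FPKM over the 6 libraries compared. The study's methods name a model for counts. The deposited unit is FPKM, so limma 3.58.1 in R 4.3.3 (lmFit, eBayes with trend, no covariate) was the test, with Benjamini-Hochberg adjustment over all genes tested, and was tested on simulated data. Values are given per library for the 5 highest and 5 lowest members of RAB6A siRNA against NC, the 3 lowest p of SFRP2 siRNA, the 3 highest and lowest NC levels, Wars, list extremes and regulators. Alternatives were other pseudocounts, filters, scalings and fits, voom on recovered reads, GC and length correction, a replicate block and leaving out each library. A planned comparison of protein sequences was not run. The values of 1 member, counted in the totals, are not reported here.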

Additional observations from a re-analysis of the deposited data

How the results depend on the processing

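For RAB6A siRNA against NC, 26 to 30 synthetases were called over the 17 alternatives against 29, and 24 of the 29 calls held under every alternative. Hars2, Lars2, Qars and Vars2 were among those that lost their call under at least 1, and no called member changed sign. Without the filter the adjusted p of Lars2 was 0.068, without the trend it was 0.056, and that of Vars2 was 0.060 with quantile normalization. Tars2, not called, passed with a pseudocount of 1 (0.0499) or 0.01 (0.048) and with all 9 libraries in 1 fit (0.037). Mars2, also not called, passed as lower with quantile normalization (log2 fold change -0.40, adjusted p = 0.031). The number past both DEG thresholds was 3 with a pseudocount of 1 and 3 with GC content and gene length corrected, which also moved the median of the members to -0.36. Leaving out 1 library gave 26 to 29 calls, 4 to 5 past both thresholds and medians of -0.57 to -0.47. The -0.57 came without RAB6A siRNA library 3.

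Members not called changed sign in some fits. With quantile normalization Cars was 0.0325, Kars 0.0971 and Vars 0.0943. With GC content and gene length corrected Tars2 was 0.0129, Cars 0.00048, Kars 0.18 and Fars2 0.0052, and Sars2 in RAB6A siRNA against SFRP2 siRNA was -0.0101. Without 1 library Mars2 was -0.124 to 0.0020, the last without NC library 1. The causes were not tested. In SFRP2 siRNA against NC, 0 members were called under each of the alternatives, with medians of -0.0336 to 0.0138 without 1 library. Over all genes voom called 7 genes higher and 34 lower there. In RAB6A siRNA against SFRP2 siRNA 26 to 31 were called, and 26 to 28 without 1 library.

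The labels number the libraries 1 to 3 in each group, and same-numbered libraries did not deviate together (correlations from -0.06 to 0.05). The replicate block gave 28 calls for RAB6A siRNA against NC, 0 for SFRP2 siRNA against NC and 26 for RAB6A siRNA against SFRP2 siRNA. The block ended the call on Vars2 for RAB6A siRNA against NC (adjusted p = 0.051) and on Sars2 for RAB6A siRNA against SFRP2 siRNA (0.086). FPKM uses the length of all exons, and counting error falls with depth.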
